A study of Mus musculus with 2 samples.

Results

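CpG-sparse promoters were taken as the windows within 500 bp of the TSSs of autosomal protein-coding genes, without the olfactory (Olfr) and vomeronasal (Vmn) receptor genes, in which 2 to 8 CpG sites were covered in the SCoTCH-seq data. A site was covered when at least 5 read pairs gave a call at it in either replicate. Of 19350 TSSs in GENCODE vM21, 3317 met the rule. Another 9571 had 9 to 29 covered sites, 5093 had 30 or more and 1369 had fewer than 2. The cells were E14, a line of mouse embryonic stem cells (mESCs), grown on gelatin in medium with serum and LIF. They formed 1 group of 2 replicates from different passages of the line, with no other genotype or treatment. SCoTCH-seq reads both strands of 1 DNA fragment together, so that each call at a CpG site is 1 of 9 states, made of C, mC (M) or hmC (H) on the plus strand and then on the minus strand. Levels are the calls of a state divided by all calls in the window, in percent. The core of a promoter is the window within 500 bp of its TSS, and the flanks lie 501 to 2000 bp from it on both sides.

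CpG sites are rare in most of the mouse genome because mC mutates readily to T, and they are kept in CpG islands, most of which are unmodified and cover the promoters of broadly expressed genes. Promoters outside islands often belong to genes expressed in few tissues, and are commonly methylated where the gene is silent. Maintenance methylation copies mC to the new strand after replication, which leaves hemimethylated sites (MC/CM) for a time, and TET enzymes oxidise mC to hmC.

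The number of covered sites did not by itself identify promoters poor in CpG. In the reference genome (GRCm38.p6, the mm10 assembly), 1698 of the 3317 windows (51.2%) held 2 to 8 CpG sites, with a median of 6. Another 1012 (30.5%) held 9 to 20, with a median of 11. The remaining 607 windows (18.3%) held 21 or more, with a median of 74, and 424 of them held over 50. The share of reference CpG sites that was covered was 80.6% in the windows with 2 to 8 sites, 52.7% in those with 9 to 20 and 7.73% in those with 21 or more. The windows with 21 or more sites were therefore CpG-rich promoters with few covered sites, and results are given for the 3 classes separately. The rule also left out TSSs that are CpG-poor in the genome. Of 2396 TSSs with 8 or fewer reference CpG sites, 698 had fewer than 2 covered.

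**Figure D1:**
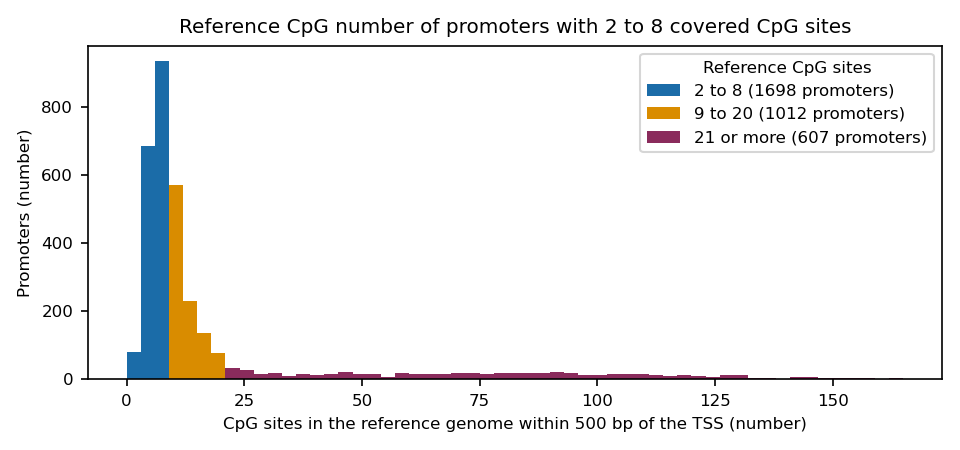
Number of promoters (y axis) by the number of reference CpG sites within 500 bp of the TSS (x axis), stacked by class. All 3317 promoters had 2 to 8 covered sites. The median was 8 reference CpG sites, and 607 promoters formed a tail from 21 to 163.

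Base composition followed the same classes. The median GC content of the window was 43.8% with 2 to 8 reference CpG sites, 49.8% with 9 to 20 and 63.6% with 21 or more, beside 59.1% at the 5093 densely covered promoters. The observed number of CpG sites over that predicted from the C and G content had medians of 0.119, 0.189 and 0.746 in the same order. The classes are cut on the observed number, so the order of these ratios follows largely from their definition. The TATA box letters TATAAA occurred on the sense strand from -40 to -20 bp of the TSS in 110 of the 1698 most CpG-poor promoters (6.48%), in 50 of 1012 (4.94%) and in 7 of 607 (1.15%), beside 2.32% of all 19350 TSSs. The GC box letters GGGCGG, which contain a CpG, were searched on both strands from -250 to 50 bp of the TSS. They occurred in 4.24%, 14.1% and 69.7% of the classes, beside 47.0% of all TSSs.

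The 250 bases upstream of 7 promoters on which the results turn are printed 5′ to 3′ on the sense strand, from the GRCm38.p6 genome, with every CpG in capitals.
Lgi4, unmodified core, chr7:31059092-31059341, plus strand: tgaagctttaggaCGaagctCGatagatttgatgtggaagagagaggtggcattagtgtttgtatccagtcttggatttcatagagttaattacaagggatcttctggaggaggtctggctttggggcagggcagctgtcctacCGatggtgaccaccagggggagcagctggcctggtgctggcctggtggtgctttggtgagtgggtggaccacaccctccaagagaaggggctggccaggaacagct
Itih2, methylated core and flanks, chr2:10131397-10131646, minus strand: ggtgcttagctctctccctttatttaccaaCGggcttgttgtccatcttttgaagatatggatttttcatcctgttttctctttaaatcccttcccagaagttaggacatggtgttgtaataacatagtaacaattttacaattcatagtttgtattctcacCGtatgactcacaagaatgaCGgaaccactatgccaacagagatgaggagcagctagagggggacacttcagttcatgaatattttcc
Lor, methylated core between unmodified flanks, chr3:92083143-92083392, minus strand: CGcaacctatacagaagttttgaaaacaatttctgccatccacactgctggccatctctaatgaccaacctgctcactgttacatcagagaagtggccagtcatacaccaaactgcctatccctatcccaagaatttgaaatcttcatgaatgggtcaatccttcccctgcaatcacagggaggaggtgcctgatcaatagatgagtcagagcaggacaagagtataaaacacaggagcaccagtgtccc
Gnb3, high HC/CH, chr6:124840276-124840525, minus strand: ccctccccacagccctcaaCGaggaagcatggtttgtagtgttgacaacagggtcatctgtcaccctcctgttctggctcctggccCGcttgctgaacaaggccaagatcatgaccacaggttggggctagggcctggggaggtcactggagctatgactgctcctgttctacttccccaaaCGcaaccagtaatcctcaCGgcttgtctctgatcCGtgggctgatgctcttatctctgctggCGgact
Krtap5-5, high HC/CH, chr7:142229972-142230221, minus strand: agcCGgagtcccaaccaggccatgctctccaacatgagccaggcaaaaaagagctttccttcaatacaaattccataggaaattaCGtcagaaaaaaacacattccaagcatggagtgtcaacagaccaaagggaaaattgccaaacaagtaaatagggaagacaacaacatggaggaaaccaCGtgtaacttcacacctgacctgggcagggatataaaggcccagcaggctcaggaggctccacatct
Nr5a2, core methylated above its flanks in an embryonic stem cell gene, chr1:136960449-136960698, minus strand: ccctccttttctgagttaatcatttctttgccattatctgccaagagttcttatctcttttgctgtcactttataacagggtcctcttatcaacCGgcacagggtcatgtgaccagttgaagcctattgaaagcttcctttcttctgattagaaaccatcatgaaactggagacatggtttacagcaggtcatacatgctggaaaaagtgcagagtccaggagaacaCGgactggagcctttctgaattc
Klf4, CpG-rich window with few covered sites, chr4:55532467-55532716, minus strand: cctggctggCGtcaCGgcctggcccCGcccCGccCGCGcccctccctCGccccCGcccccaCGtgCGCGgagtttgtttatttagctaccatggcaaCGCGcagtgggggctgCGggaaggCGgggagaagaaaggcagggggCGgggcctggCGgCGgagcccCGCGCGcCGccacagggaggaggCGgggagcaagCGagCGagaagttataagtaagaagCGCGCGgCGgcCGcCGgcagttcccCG
The Lgi4, Itih2 and Krtap5-5 stretches each held 3 CpG sites, Nr5a2 held 2 and Lor held 1, beside 32 at Klf4. TATAAA began at -27 bp from the TSS of Lor and at -36 bp from that of Krtap5-5. The label of Nr5a2 stands for less CC over its whole core than in its flanks, and its MM was not tested. Its 2 printed sites, at -23 and -156 bp, were CC in 3 of 6 and 3 of 8 calls of replicate 1, so the printed stretch does not show the label. At Klf4, which encodes a pluripotency transcription factor, none of the 32 printed CpG sites was covered, and its 6 covered sites lay elsewhere in a window with 115 reference CpG sites.

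Replicate 1 gave 141159011 calls at 13366464 autosomal CpG sites and replicate 2 gave 31102023 at 4882356, with median depths of 10 and 6 calls per site. The cores of the 3317 promoters had a median of 48 calls (interquartile range 33 to 65) in replicate 1 and 10 (5 to 17) in replicate 2, and 10 and 729 of them had none. Values at a single promoter are therefore coarse, above all in replicate 2. Of the 6047 core sites covered in replicate 2, 322 had 10 or more calls. A threshold missed with at least 10 calls per site therefore does not show that a difference is absent. In the methylated lambda control, HM/MH calls amounted to 3.88% in replicate 1 but 0.340% in replicate 2, and MC/CM calls to 3.51% and 6.43%. HM/MH levels at the promoters of replicate 1 thus lay near this control, so differences in HM/MH level between the replicates are not read. The 2 are unlike in composition, as MM was 91.0% of lambda calls and 46.8% of CpG-sparse core calls in replicate 1. Corrected by the spike-ins, HM/MH at these cores was 1.43% and 2.12%. HC/CH was 0.153% and 0.0863% of lambda calls. Lambda was mostly MM, so these values say little about hemimethylated sites misread as HC/CH. Synthetic duplexes with a hemimethylated CpG were misread this way at rates of 3.49% (replicate 1) and 0.604% (replicate 2). With spike-in correction, HC/CH at the CpG-sparse cores went from 4.40% to 3.93% and from 4.18% to 4.16%. HH was 1.09% and 0.0351% of lambda calls, so that HH at the promoters of replicate 1, at 0.398%, lay below this control.

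MM was the most frequent state at the cores of CpG-sparse promoters, at 46.8% of 164863 calls (replicate 1) and 50.5% of 38318 (replicate 2). CC made up 32.5% (95% exact binomial interval 32.3 to 32.8) and 29.1% (28.6 to 29.5), a mean of 30.8% ± 2.44 (SD, n = 2). Hemimethylated calls (MC/CM) were 12.2% and 13.6%, and HC/CH, the state with hmC facing C, was 4.40% and 4.18%. At densely covered promoters, CC was 97.1% and 96.2% and HC/CH was 0.582% and 0.774%. In both replicates, each of the 6 classes of state differed between CpG-sparse and densely covered cores (adjusted p at most 0.000186, exact two-sided sign-flip permutation test over the 19 autosomes, run in each replicate and adjusted over 160 tests). The exception under other settings was HH, which did not pass with at least 10 calls per site or with spike-in correction. Corrected HH in replicate 1 was 0% at CpG-sparse and 0.0156% at dense cores, the opposite direction. The autosomes of a replicate share a library, so these p-values do not measure the spread between cultures. The smallest p that the test can give is 3.8e-06.

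The 3 classes differed strongly. CC was 20.8% and 17.3% of core calls in windows with 2 to 8 reference CpG sites, 27.5% and 23.2% with 9 to 20, and 80.4% and 80.1% with 21 or more. MC/CM went the other way, from 15.2% and 16.9% to 11.9% and 13.3%, and to 3.35% and 4.14%. HC/CH was highest in the middle class, at 5.52% and 5.20%, beside 4.07% and 3.63% in the most CpG-poor class and 2.98% and 3.42% in the CpG-rich class. Between the lower 2 classes, the difference of the cores with 9 to 20 sites from those with 2 to 8 was 6.68 and 5.93 percentage points for CC, -3.37 and -3.66 for MC/CM, and 1.44 and 1.57 for HC/CH. All of these passed the threshold in both replicates (adjusted p at most 0.0158, exact sign-flip permutation test), as did HM/MH and MM. With at least 10 calls per site, CC differed by 1.62 points on average and no longer passed, nor did HC/CH at 1.67. Among methylated sites without hmC, the hemimethylated share, (MC + CM) / (MM + MC + CM), was 21.5% and 22.0% with 2 to 8 sites, and that with 9 to 20 differed from it by -2.37 and -2.61 points (adjusted p = 0.00049 and 0.00115, exact permutation test), which did not pass with at least 10 calls per site. With 21 or more sites, the share was 22.7% and 27.8%, so it did not fall steadily with CpG number. Corrected by the spike-ins, it was 19.6% and 20.5%, then 17.1% and 17.6%, and 18.0% and 20.7% in the 3 classes. The CpG-rich class was not tested against the others.

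**Figure D2:**
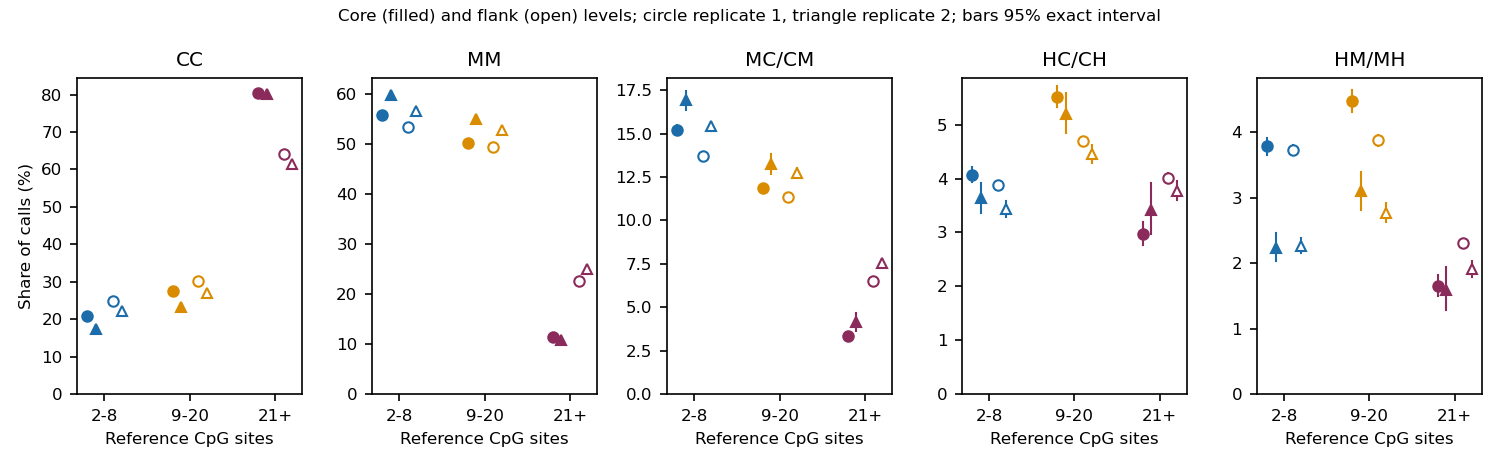
Share of calls in percent (y axes) for 5 classes of CpG state at promoters with 2 to 8, 9 to 20 and 21 or more reference CpG sites (x axes). Filled symbols are cores and open symbols flanks, circles replicate 1 and triangles replicate 2, with 95% exact binomial intervals, which cover counting error only. CC rises with the reference CpG number, and HC/CH is highest in the cores of the middle class.

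Next, cores were compared with their own flanks. Over all 3317 promoters, CC was lower in the cores, at 32.5% and 29.1% beside 37.7% and 34.9% in the flanks, and MM was higher by 3.37 and 4.07 points (adjusted p at most 0.00353, exact sign-flip permutation test). With at least 10 calls per site, neither passed, though the mean differences kept their sign and were no smaller. The direction of these differences depended on the weighting. The sums weight each promoter by its calls. When each promoter counted once, mean CC was 34.1% and 28.3% in cores and 29.7% and 25.7% in flanks, so that cores were higher by 4.40 and 2.57 points. In the class with 2 to 8 reference CpG sites, CC of cores minus flanks was -4.09 and -4.89 points by sums, but -0.846 and -0.658 when each promoter counted once (p = 0.115 and 0.241, exact permutation test, unadjusted). With 9 to 20 sites, the sign of the CC difference depended on the weighting, and neither direction passed in both replicates. It was -2.84 and -3.86 points by sums (adjusted p = 0.0664 and 0.00161, exact permutation test). With each promoter counted once, it was 1.71 and 1.82 (p = 0.0253 and 0.0554, exact permutation test, unadjusted). The CpG-rich class had cores 16.2 and 18.5 points higher in CC than their flanks.

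HC/CH was higher in the cores of the lower 2 classes than in their flanks when each promoter counted once. The means were 4.12% in cores and 3.52% in flanks in replicate 1, and 3.45% and 2.98% in replicate 2, with 2 to 8 reference CpG sites (p = 9.5e-05 and 0.0183, exact permutation test, unadjusted). With 9 to 20 sites, they were 5.65% and 4.58%, and 5.43% and 4.23% (p = 2.7e-05 and 0.000687, exact permutation test, unadjusted). By sums, the differences had the same sign but were 0.188 and 0.201 points with 2 to 8 sites, which missed the threshold, and 0.829 and 0.746 points with 9 to 20, which passed it in replicate 1 alone (adjusted p = 9.0e-05 and 0.0555, exact permutation test). HC/CH of cores minus flanks in the CpG-rich class was -1.03 points in replicate 1 (adjusted p = 1.5e-05, exact permutation test) and -0.354 in replicate 2, which missed the threshold.

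By comparison, promoters with 9 to 29 covered sites had cores 22.3 and 23.5 points higher in CC than their flanks, and their HC/CH differed from that of the flanks by -1.57 and -1.32. The core-to-flank difference of the CpG-sparse promoters differed from theirs in CC, MM, MC/CM, HC/CH and HM/MH in both replicates (adjusted p = 1.5e-05 for each, exact sign-flip permutation test), and with at least 10 calls per site HC/CH alone of these no longer passed.

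**Figure D3:**
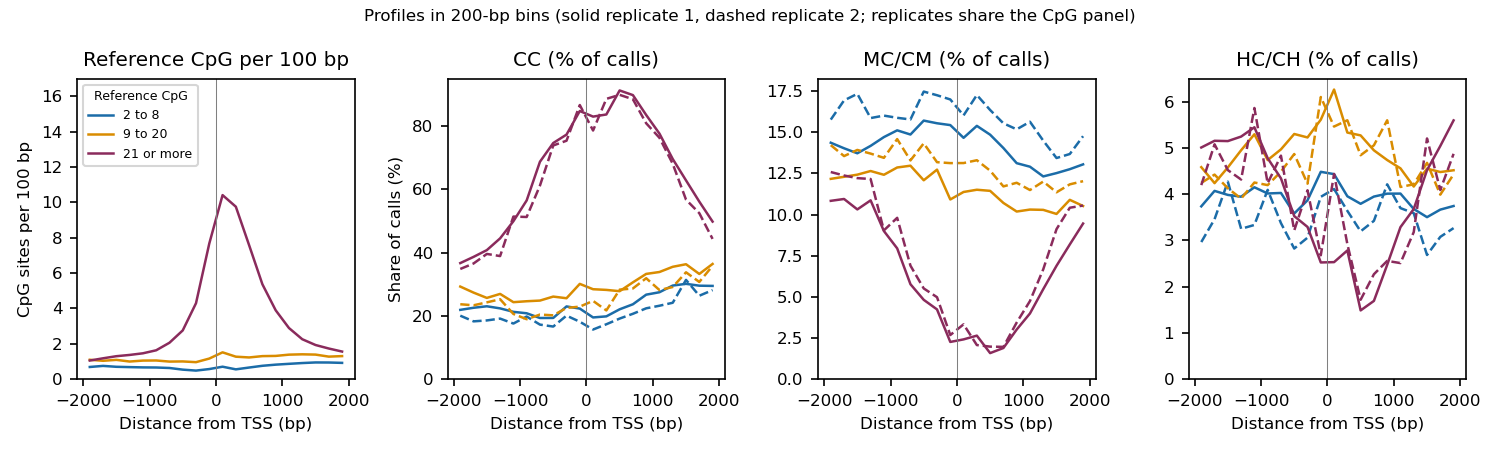
Reference CpG sites per 100 bp and the levels of CC, MC/CM and HC/CH in percent of calls (y axes) in bins of 200 bp from 2000 bp upstream to 2000 bp downstream of the TSS (x axes), for the 3 reference CpG classes. Solid lines are replicate 1 and dashed lines replicate 2. CC of the class with 2 to 8 sites has no peak at the TSS, and that of the CpG-rich class is highest 400 to 600 bp downstream, and HC/CH of the middle class is highest next to the TSS. The rule allows at most 8 covered sites within 500 bp, so few sites of the CpG-rich class are covered near the TSS. In that class, 433 of 12632 reference CpG sites were covered in the bin after the TSS and 1598 of 9191 at 400 to 600 bp.

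Along the promoters with 2 to 8 reference CpG sites, CC in bins of 200 bp spanned 19.3% to 30.1% in replicate 1, and 15.7% to 31.3% in the other. HC/CH in the bin from the TSS to 200 bp downstream was 4.43% and 4.11%, and in the bin just upstream of the TSS 4.48% and 3.94%. Over all bins, it spanned 3.50% to 4.48% in replicate 1 and 2.68% to 4.27% in replicate 2. The highest bin of replicate 2 began 1600 bp upstream, and the bin from 800 bp downstream, at 4.21%, also exceeded both bins at the TSS. The density of reference CpG sites was lowest, at 0.481 per 100 bp, from 400 to 200 bp upstream and was 0.700 per 100 bp in the bin after the TSS. The class was cut at 8 reference CpG sites within 500 bp, so a lower density there than in the flanks follows from the selection. Splitting the cores of all 3317 promoters at the TSS, the downstream part had less CC, at 29.6% and 26.3%, than the upstream part, at 35.4% and 31.8%, and more MM, by 4.62 and 4.38 points (adjusted p at most 0.000385, exact sign-flip permutation test). Without the windows of more than 8 reference CpG sites, CC differed by -1.75 points on average, and neither state passed, nor did they with at least 10 calls per site.

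The promoters were then compared with the 3′ ends of genes. Of the 3317 genes, 1970 also had 2 to 8 covered sites within 500 bp of the end of the gene (the transcription termination site, TTS). With all 3317 TSSs, CC was 32.5% and 29.1% beside 18.6% and 15.4% at the 1970 TTSs, and HC/CH was 4.40% and 4.18% beside 3.60% and 3.15% (adjusted p at most 9.8e-05, exact sign-flip permutation test). With at least 10 calls per site, HC/CH no longer passed. At the TSSs of the same 1970 genes, CC was 31.0% and 27.3% and HC/CH 4.23% and 3.85%, and both differed from the TTSs (p at most 0.00297, exact permutation test, unadjusted). The comparison was narrowed to the 949 genes with 8 or fewer reference CpG sites at both ends. There, HC/CH was 3.72% and 3.13% at TSSs beside 2.99% and 2.48% at TTSs, higher at TSSs on 17 and 15 of 19 autosomes (p = 6.5e-05 and 0.00161, exact permutation test, unadjusted). CC was 19.7% and 16.3% at TSSs beside 17.6% and 14.6%, which passed in replicate 1 alone (p = 0.00516 and 0.166, likewise an exact permutation test). The hemimethylated share of these genes was 22.1% and 22.0% at TSSs and 21.7% and 22.1% at TTSs, which did not pass in either replicate.

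HC/CH also varied with the number of covered sites within the most CpG-poor class. From promoters with 2 to those with 8 covered sites, it went from 3.65% to 4.73% in replicate 1 and from 2.01% to 4.11% in replicate 2, without a test. The order between was not steady, with 3.46% at 3 sites in replicate 1 and the highest value of replicate 2, 4.34%, at 6. CC over the same range was between 18.5% and 23.5%, and between 13.1% and 21.1%, with no steady order. At the edges of the rule, over all promoters, CC was 27.9% and 24.8% with 1 covered site and 27.7% and 25.4% with 2, and 35.0% and 31.4% with 8 and 40.6% and 35.3% with 9.

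Spacing of the CpG sites was linked to hemimethylation. In the cores with 2 to 8 reference CpG sites, the hemimethylated share was 17% and 17.8% at sites within 20 bp of another reference CpG, 21.2% and 20.8% at 21 to 50 bp, 23.1% and 25.3% at 51 to 100 bp, and 23.1% and 23.1% beyond 100 bp. It was higher beyond 100 bp than within 20 bp on 19 and 17 of 19 autosomes (adjusted p = 1.5e-05 and 0.000708, exact sign-flip permutation test). The differences were -5.21 and -3.95 points for MM, and 4.18 and 4.20 for MC/CM, both past the threshold in both replicates. CC and HC/CH did not pass in both. With at least 10 calls per site, the hemimethylated share and MC/CM missed the threshold. Over all autosomal sites, the hemimethylated share went from 15.8% and 16.4% within 20 bp to 22.3% and 22.2% beyond 100 bp. Whether the promoters differ from the rest of the genome in this respect was not tested.

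**Figure D4:**
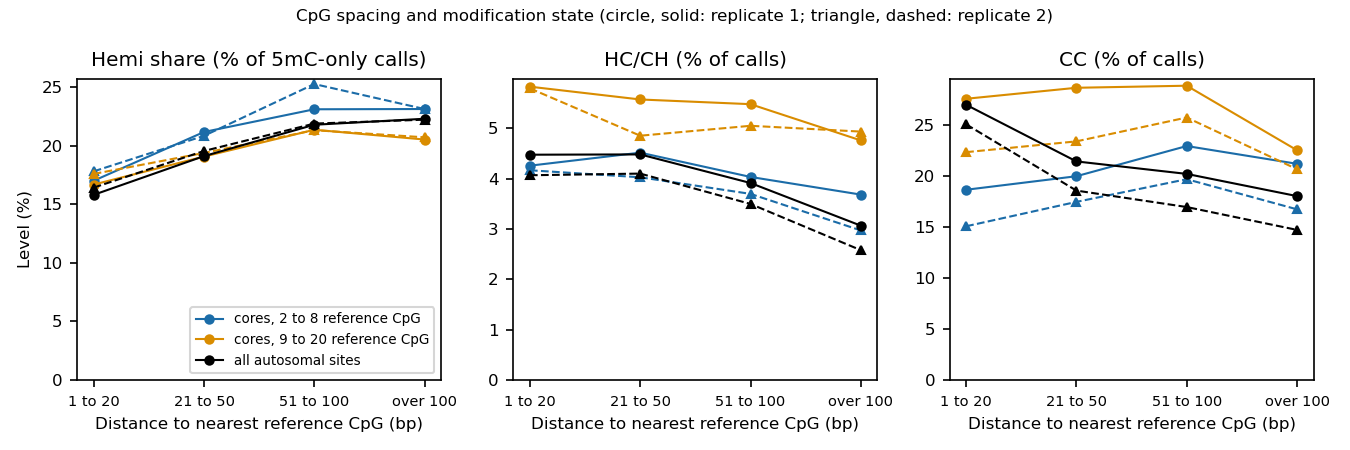
Hemimethylated share of methylated calls without hmC, HC/CH and CC, in percent (y axes), by the distance from a covered site to the nearest other reference CpG in bp (x axes). Blue and orange are promoter cores with 2 to 8 and 9 to 20 reference CpG sites and black all autosomal sites. Circles with solid lines are replicate 1 and triangles with dashed lines replicate 2. The hemimethylated share is lowest within 20 bp in all of them.

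Strand made no detectable difference. With states turned by the direction of the gene, hmC of HC/CH lay on the sense strand in 2.23% and 2.13% of calls and on the antisense strand in 2.16% and 2.04%. None of MC/CM, HC/CH and HM/MH differed between the strands in either replicate (adjusted p at least 0.168, exact sign-flip permutation test).

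Single promoters spread over the whole range of CC. Among 1040 promoters with at least 30 core calls in replicate 1 and 15 in replicate 2, CC was 20% or less in both replicates at 468 (45%) and 80% or more in both at 103 (9.90%). In the class with 2 to 8 reference CpG sites, these numbers were 273 and 7 of 487. Across the 1040 promoters, which share the libraries and differ in depth, CC correlated between the replicates with a Spearman coefficient of 0.752, MM with 0.710, MC/CM with 0.421 and HC/CH with 0.338. The coefficient was 0.203 for HM/MH and 0.012 for HH, the lowest of the 6 classes of state. Among the 487 promoters with 2 to 8 reference CpG sites, CC had a coefficient of 0.603 and MM one of 0.511, while HC/CH reached 0.336, MC/CM 0.220, HM/MH 0.116 and HH -0.0382.

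**Figure D5:**
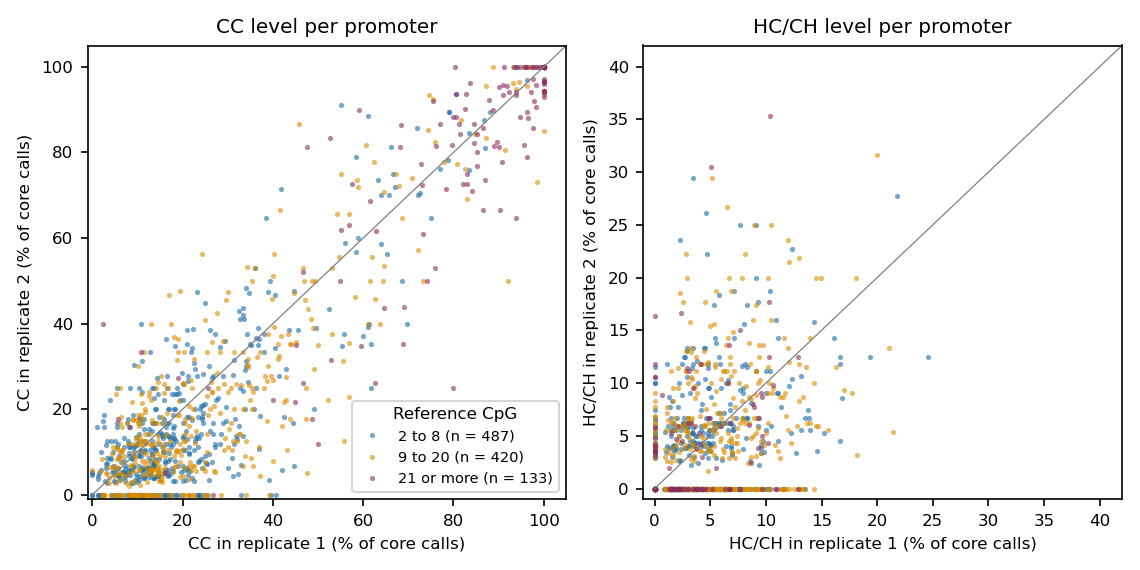
Level in replicate 1 (x axes) and replicate 2 (y axes), in percent of core calls, of CC (left) and HC/CH (right). Each point is 1 of the 1040 promoters with at least 30 and 15 core calls, coloured by reference CpG class, and the grey line marks equal values. Points of the class with 2 to 8 sites lie mostly at low CC, and those of the CpG-rich class at high CC.

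The cores of single promoters were then compared with their flanks by Fisher's exact test on the calls, over 16376 TSSs. A promoter was called with adjusted p under 0.05 in replicate 1 and unadjusted p under 0.05 with the same direction in replicate 2. CC was higher in the core at 280 of 2526 CpG-sparse promoters tested (11.1%), beside 57.0% of all TSSs tested, and lower at 135 (5.34%), beside 2.31%. These shares depend on depth as well as on level. In replicate 1, the cores of the 3317 CpG-sparse promoters held 164863 calls and those of the 5093 densely covered ones 1402148. With at least 10 calls per site, 12 were higher and 6 lower, and with either replicate alone 355 to 640 were higher and 161 to 404 lower. With 2 to 8 reference CpG sites, 69 were higher and 76 lower of 1298 tested, with 9 to 20 sites 70 and 55 of 855, and with 21 or more 141 and 4 of 373. The flanks differed between these sets. In the most CpG-poor class, the flanks held a median of 47 reference CpG sites at promoters with lower CC, 21 at those with higher CC and 19 at the others.

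The examples that follow are from the 69 and 76 promoters of the most CpG-poor class and were chosen after their values were seen. At Lgi4, which encodes a secreted protein needed for myelination of peripheral nerves, CC was 96.4% of 83 core calls and 97.0% of 33, beside 21.1% and 4.65% in the flanks. In the printed stretch, the CpG sites at -237 and -230 bp from the TSS gave CC in 24 of 25 and 22 of 24 calls in replicate 1, and in 9 of 10 and 10 of 10 in replicate 2. The 4 covered sites of its core, of 7 in the reference, all lay from -286 to -230 bp. Eci2, for an enzyme of fatty acid oxidation, had core CC of 78.7% and 78.3% beside 14.7% of 204 and 0% of 12 flank calls. Themis, for a signalling protein of thymocytes, had 67.1% and 71.9% beside 9% of 100 and 0% of 13. Spic, for an Ets-family factor of macrophages, had 83.5% and 76.0% beside 35.0% and 19%. In each of these, the covered sites of the core were less modified than those of the flanks in both replicates.

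Among the cores with lower CC than their flanks was that of Fth1. For this gene, the heavy chain of the iron store ferritin, core CC was 11.4% of 114 calls and 12.5% of 16, beside 66.9% and 76.3% in the flanks. Rfc2, a subunit of the clamp loader of DNA replication, had 20% and 9.09% beside 83.1% and 82.2%. Clk4, a kinase of splicing factors, had 21.3% and 26.7% beside 83.3% and 86.3%, and Borcs5, of a complex that positions lysosomes, had 6.33% and 0% beside 76.7% and 84.4%. Their flanks held 49 to 113 reference CpG sites and their cores 4 to 8. The TSS used for each gene is the outermost base of its GENCODE gene model, and whether the cells start transcription there was not tested.

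HC/CH was higher in the core than in the flanks at 12 of 2526 CpG-sparse promoters (0.475%), beside 0.299% of all TSSs tested, and lower at 1 (0.0396%), beside 3.77%. CpG-sparse promoters had a median of 10 core calls in replicate 2 and a flank level of 3.86%. At such numbers few cores could be called lower even with no HC/CH, so the share called lower is not read. By Fisher's exact test, 0 were called in either direction when both p-values had to pass after adjustment or with at least 10 calls per site, and with either replicate alone 1 to 82 were higher and 0 to 12 lower. Of the 12, 10 had 9 to 20 reference CpG sites, 1 had fewer (Gm2696, a predicted gene) and 1 had more (Cacnb4, for a calcium channel subunit). The examples named here were also chosen after their values were seen. Gnb3, for a G protein subunit of retinal cones, had HC/CH in 20% of 55 core calls and 31.6% of 19, beside 4.02% and 3.77% in the flanks. Its CpG site at -34 bp from the TSS gave HC/CH in 4 of 9 and 2 of 5 calls, and those at -50 and -68 bp gave 2 of 11 and 2 of 6, and 2 of 14 and 2 of 8. Of its other sites, covered in replicate 1 only, those at -164 and -461 bp gave 0 of 5 and 0 of 7, and that at 498 bp gave 3 of 9. Btla, for an inhibitory receptor of lymphocytes, had 14.5% and 20% beside 3.93% and 2.78%. Trim72, for a protein of muscle membrane repair, had 12.1% and 21.4% beside 3.71% and 5.15%. The promoter with lower HC/CH was that of Tmem40, with none in 72 and 29 core calls beside 9.18% and 19.4%, and its core was 94.4% and 96.6% CC.

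Ranked on the lower of the replicates, HC/CH among the 1040 deeper promoters was highest at Krtap5-5, for a protein of the hair shaft, with 21.7% of 46 core calls and 27.8% of 18. The calls were spread unevenly over its sites. HC/CH was 6 of 9 and 1 of 6 calls at -247 bp from the TSS, 0 of 13 and 3 of 7 at -165 bp, 1 of 14 and 1 of 5 at -67 bp, and 3 of 10 at -339 bp, which was covered in replicate 1 only. After it and Gnb3 came Ccnt1, for cyclin T1 of the elongation factor P-TEFb, with 18.1% and 20%, and 4930415O20Rik, whose TSS lies beside that of Ccnt1 and shares its sites. Btla, Cnga3 of cone photoreceptors with 16.1% and 14.3%, Gm2696 with 14.3% and 15.8%, and S100a3 with 14% and 14.3% completed the 8 highest. Of these, Gnb3, Btla and Gm2696 were called higher than their flanks, while Krtap5-5, Ccnt1, 4930415O20Rik, Cnga3 and S100a3 were not. HC/CH in the flanks was 5.80% of 69 and 0% of 5 calls at Krtap5-5, and 9.29% and 8.11% at Cnga3. Each of these cores had 4 to 19 reference CpG sites.

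More than 8 of the 1040 promoters had CC of 100% in both replicates, and the first 8 by symbol were C1ql1, Caprin1, Col23a1, Cpne1, Dnajc21, Dusp16, Ivns1abp and Klf4. Their windows held 68 to 115 reference CpG sites, so none was poor in CpG. MC/CM was highest at Gpr141, for an orphan receptor, with 40.7% of 59 calls and 29.2% of 24, followed by Bpifa1, C18orf63, Gm5155 and Kprp, which lay between 25.0% and 31.2%. Those 5 windows had 4 to 10 reference CpG sites. High HM/MH levels were found at Mro with 20.5% of 44 calls and 23.5% of 17, and Gm1043 with 17.5% of 63 and 18.2% of 22. Trim10 had 15% of 60 and 15.4% of 39, and Car9, a carbonic anhydrase induced by low oxygen, had 11.3% of 62 and 21.7% of 23. HM/MH of single promoters was not tested against the flanks, and its levels are not corrected by the spike-ins here.

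Of all 19350 TSSs, 17.1% met the rule, and the shares of the gene lists were counted without a test. All 7 milk genes did, as did 6 of 7 epidermal barrier genes, 28 of 36 late cornified envelope and small proline-rich genes, 21 of 27 kallikreins, 34 of 49 serpins of clades a and b, and 21 of 38 liver genes. The counts were 24 of 64 for defensins, where 30 had fewer than 2 covered sites and so could not meet the rule, 10 of 27 for lymphocyte, 7 of 22 for myeloid, 5 of 16 for lens crystallin and 14 of 53 for keratin genes. For genes known to be expressed in embryonic stem cells, 5 of 41 (12.2%) lay near the share of all TSSs, and 1 of 79 cytosolic ribosomal protein genes (Rps2) met the rule. The lists were chosen with earlier results of these data known, and only their counts and levels are given. Calls in a list stand beside 11.1% of all 2526 tested CpG-sparse promoters called higher in CC and 5.34% called lower, and beside 5.32% and 5.86% of the 1298 with 2 to 8 reference CpG sites, the class of 14 of the 21 kallikreins and of all 28 late cornified envelope and small proline-rich members.

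The 21 liver members had core CC of 20.7% and 22.7% beside 19.9% and 19.5% in their flanks, and none of the 14 tested was called. All promoters with 2 to 8 reference CpG sites had core CC of 20.8% and 17.3%. Itih2, for a plasma protein that carries hyaluronan, had 10.6% of 94 calls and 0% of 31, beside 7.34% and 2.17% in its flanks. Its printed CpG site at -68 bp from the TSS was MM in 5 of 7 and 4 of 5 calls, and the one at -220 bp in 9 of 14 and 5 of 7. Alb, for serum albumin, had CC of 12.5% and 9.09%. Both genes lay below the level of their list in both replicates, so other liver members lay above it. The 13 pancreas members had 16.7% and 7.69%, with Ins2, for insulin, at 12.7% of 55 calls and 12.5% of 8. Lymphocyte members had CC of 16.5% and 9.68%, with Cd28, a T cell costimulator, at 7.08% and 13.3%, and Ms4a1, the B cell antigen CD20, at 16.0% and 8%. Myeloid members had 15% and 14.5%, with Lyz2, for lysozyme, at 23.5% and 13.3%.

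Muscle members had core CC of 16.7% and 11.9% beside 26.9% and 12.5% in their flanks, with 2 of 10 tested called higher in the core, beside 11.1% of all CpG-sparse promoters tested. Tnnt1, the troponin T of slow muscle, had 73.7% of 19 calls and 57.1% of 7 beside 29.2% and 8.57%, and Myl2, a myosin light chain of heart and slow muscle, had 46.7% and 40% beside 23.0% and 6.56%. The 7 milk members had 20.5% and 6.17%. Csn3, for kappa-casein, ranged from 40.7% of 54 calls to 0% of 6 in the shallower replicate. Wap, whey acidic protein, had 6.38% and 7.69%.

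The 6 epidermal barrier members were methylated in the core and, as a group, mostly unmodified in the flanks, with CC of 13.5% and 11.8% beside 65.7% and 74.0%. This came from 2 genes, both called lower, of 5 tested. Lor, for loricrin of the cornified envelope, had core CC of 13.5% of 52 calls and 11.1% of 18 beside 89.8% and 93.7%, with 102 reference CpG sites in its flanks. Tchh, for trichohyalin of the hair follicle, had 23.0% and 13.3% beside 88.5% and 88.4%, with 72. At Flg, Flg2, Hrnr and Rptn, core CC lay between 0% and 17.6% and flank CC at the values measured between 0% and 29.7%. HC/CH over the 6 cores was 1.12% and 2.35%. The single CpG printed for Lor, at -250 bp from the TSS, was MM in 12 of 19 and 8 of 8 calls.

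Kallikreins, a cluster of genes for secreted serine proteases, had core CC of 38.0% of 871 calls and 42.1% of 252 beside 28.6% and 23.1% in the flanks. Of 17 tested, 3 were called higher and none lower, beside 11.1% called higher among all CpG-sparse promoters tested, 5.32% in the most CpG-poor class and 57.0% of all TSSs tested. Klk14 had CC of 58.3% and 78.9%, Klk1b22 of 61.0% and 88.5%, and Klk1b3 of 63.3% and 73.7%. Others of the same cluster were methylated, such as Klk1b26 with 0% of 26 and of 15 calls, and Klk1b8 with 16.7% and 10.0%. These genes resemble each other in sequence, so their values are uncertain where reads could be assigned to more than 1 copy. Keratins had core CC of 17.9% and 7.27%, keratin-associated proteins 13.9% and 9.23%, late cornified envelope and small proline-rich genes 13.3% and 11.6%, defensins 21.3% and 11.0% with 1 of 21 called higher, and taste and trace amine receptors 18.0% and 14.9% with 1 of 27 called higher. Cytochromes P450 had 21.3% and 16.2%, with Cyp4f16 at 80.6% and 93.8% and Cyp2d12 called higher, and Cyp2a5 and Cyp2d11 called lower, of 41 tested. In serpins, with 17.9% and 25.3%, Serpinb9b and Serpina1e were called higher of 24 tested. Prolactin, Psg and Ceacam genes had 20.9% and 17.8% with 2 of 24 higher and 1 lower, C-type lectins 24.9% and 25.4% with 1 of 20 in each direction, and UDP-glucuronosyltransferases 21.3% and 12.1% with 1 of 12 lower. Apolipoproteins had 23.6% and 21.9%, lens crystallins 19.6% and 10.2%, and interferons alpha and beta 19.5% and 14.5%, with none called.

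Of the 5 embryonic stem cell members, Klf4 and Nodal had CpG-rich windows. The others had 3 to 6 reference CpG sites. Nr5a2, for a nuclear receptor expressed in these cells, had core CC of 21.4% of 56 calls and 9.52% of 21, lower than its flanks at 40.2% and 46.2% (Fisher's exact test, adjusted p = 0.015 in replicate 1). Its CpG site at -156 bp from the TSS gave HC/CH in 2 of 8 and 3 of 6 calls, all of them CH, and CC in 3 of 8 and 2 of 6. The other printed site, at -23 bp, gave no HC/CH and 3 CC in 6 calls of replicate 1, and was not covered in replicate 2. CC at these 2 sites of replicate 1 was thus not clearly below that of the flanks. Fgf4, for a growth factor secreted by mESCs, had CC of 24.0% of 25 calls and 20% of 5 beside 36.4% and 34.9%. Zscan4d, a gene of cells in a state like that of the early embryo, had 2.17% of 46 calls and 0% of 7, with MM at 80.4% and 100%. The Zscan4 genes are near-identical copies, so that value is uncertain too.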

How the data were processed

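Genomic DNA from 2 replicates of E14 mESCs was read by SCoTCH-seq, and per the labels nothing else distinguished them. Per the study's methods, the authors trimmed read pairs with Cutadapt 4.6, aligned them with BSBolt to GRCm38, removed duplicates with Picard and called a state at each CpG site of a read pair. The authors deposited, per replicate, the count of each state and the depth at each site with 5 or more calls outside blacklisted regions, and the percent of each state, which was not corrected by the spike-ins. Sites passing in 1 replicate only were kept. Counts were summed over unique sites in pandas 2.3.3 and NumPy 2.4.6 under Python 3.11.15. SciPy 1.17.1 gave the tests and Matplotlib 3.10.9 the plots. All sites lay on a CpG of GRCm38.p6. TSSs were gene-level ends in GENCODE vM21. Flank sums left out sites in any core of the same set.

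The 2 replicates share a condition, so samples could not be tested against each other. Levels were compared with an exact two-sided sign-flip permutation test over 19 autosomes in each replicate, with Benjamini-Hochberg adjustment over 160 tests and a threshold of 0.05 in both replicates with the same sign. Per promoter, Fisher's exact test compared calls, adjusted over all TSSs tested, with adjusted p under 0.05 in replicate 1 and p under 0.05 in replicate 2. Calls of 1 read pair at neighbouring sites are not independent, and intervals and these p-values cover counting error only. The steps were tested on simulated data. Named promoters were the members of gene lists and, with at least 30 and 15 core calls, the 8 highest in CC and in HC/CH and the 5 highest in HM/MH and in MC/CM, ranked on the lower replicate, of which 1 promoter is not reported here. The members, lists and rules were chosen with earlier results of these data known, and the reference CpG classes, the spacing of sites and the examples of called promoters after the values here were seen.

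Alternatives were equal weight per promoter, 10 calls per site, sites covered in both replicates, correction with the call rates of each replicate's synthetic duplexes (9 linear equations, negative solutions set to 0), 8 or fewer reference CpG sites, no neighbouring TSS within 2000 bp, TSS and TTS of the same genes (added after the data were seen), a core of 250 bp, adjusted p in both replicates, and leaving out each replicate.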

Additional observations from a re-analysis of the deposited data

How the results depend on the processing

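Of 294 values recomputed under an alternative, 240 kept their direction and their side of the threshold. Differences are means over the replicates in percentage points. With equal weight per promoter, cores minus flanks turned to 3.49 for CC, -3.32 for MM and -0.698 for MC/CM, and HC/CH passed at 0.450. Equal weight within 8 or fewer reference CpG sites gave -0.752, -0.167, 0.318 and 0.536 in the same order, of which only HC/CH passed. With at least 10 calls per site, which left 322 core sites in replicate 2, several differences no longer passed. These were cores minus flanks for CC (-5.76), MM (4.13) and MC/CM (1.25), CpG-sparse minus dense for HH (0.189), CpG-sparse minus intermediate for HC/CH (1.26), TSS minus TTS for HC/CH (0.783), and downstream minus upstream for CC (-9.29) and MM (7.14). In the same setting, isolated minus paired sites lost MC/CM (2.47) and the hemimethylated share (4.02), and 9 to 20 minus 2 to 8 reference sites lost CC (1.62), HC/CH (1.67) and the hemimethylated share (-3.39). With 8 or fewer reference CpG sites, MC/CM missed the threshold for TSS minus TTS (-1.10), as did CC (-1.75) and MM (1.99) for downstream minus upstream. For the same genes with 8 or fewer reference sites at both ends, TSS minus TTS no longer passed for CC (1.87) and MC/CM (-0.541), and MM (-2.35) had unadjusted p of 0.000488 and 0.0370 in the exact permutation test. With spike-in correction, HH no longer passed against dense promoters (0.0721, with opposite signs in the replicates) and HM/MH passed for TSS minus TTS (0.457). Cores minus flanks passed for HC/CH with a core of 250 bp (0.598) and for HM/MH at sites covered in both replicates (0.218). The cause of these changes was not tested.

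With 1 replicate left out in turn, cores minus flanks ranged from 0.227 to 0.319 for HC/CH and from 0.127 to 0.313 for HM/MH, which passed in replicate 1 alone. CpG-sparse minus intermediate ranged from 0.0397 to 0.129 for HH, TSS minus TTS from -0.0268 to 0.314 for HM/MH and from 0.00353 to 0.0847 for HH, downstream minus upstream from 0.0241 to 0.467 for HM/MH, and isolated minus paired from 1.66 to 2.54 for CC. Promoters called by 1 replicate alone numbered 355 to 640 with higher CC, 161 to 404 with lower CC, 1 to 82 with higher HC/CH and 0 to 12 with lower HC/CH. With 10 calls per site, 12 had higher and 6 lower CC and 0 were called in HC/CH in each direction by Fisher's exact test. With 8 or fewer reference sites, the numbers were 69, 76, 1 and 0. Requiring adjusted p in both replicates left 0 in HC/CH. Pairing of samples between groups was not possible because there is 1 group only.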
